A study of Mus musculus with 16 samples.

Results

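The clustered protocadherins are a family of cell-surface adhesion proteins encoded side by side in an alpha, a beta and a gamma cluster. Their transcripts were followed in mouse cardiac fibroblasts in which the transcription factor TCF21 was removed or added. Members were taken by gene symbol (Pcdha or Pcdhac, Pcdhb, and Pcdhga, Pcdhgb or Pcdhgc, each with a number). They came to 50 of the 19707 genes listed in 3 tables of normalized counts, with 7 in the alpha, 21 in the beta and 22 in the gamma cluster. The family was chosen because 1 of its genes, Pcdhgb8, was already known to be higher in these data after loss of TCF21. The comparisons of loss with control are therefore descriptions: counts of genes past a threshold are given for them, and nothing is read from those counts. The gain of TCF21, which the choice did not use, is tested.

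Clustered protocadherins carry extracellular cadherin repeats that pair with the same isoform on a neighbouring cell. Each alpha and gamma gene has its own variable first exon and promoter, and its transcript is spliced to constant exons that all genes of that cluster share, whereas the beta genes are single-exon genes without such a constant end. In neurons, where the family is best known, individual cells switch on different sets of promoters through CTCF, cohesin, DNA methylation and distant enhancers, while the C-type genes at the end of the alpha and gamma clusters are used more uniformly.

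Fibroblasts were sorted by flow cytometry for EGFP from hearts of mice aged 8 to 12 weeks, and all groups carried the Rosa26-loxP-STOP-loxP-EGFP reporter and received tamoxifen. For loss, Tcf21-MerCreMer:Tcf21-fl mice were compared with Tcf21-MerCreMer mice, whose Cre is driven by Tcf21 itself. Uninjured hearts were taken 2 weeks after tamoxifen (3 deleted and 3 control libraries), and other hearts after 1 week of angiotensin II and phenylephrine (2 deleted and 3 control libraries). For gain, Pdgfra-creERT:Col1a1-TCF21 mice, which express TCF21 from a Col1a1 transgene once Cre acts in Pdgfra-positive cells, were compared with Pdgfra-creERT mice after the same infusion of 1 week (2 gain and 3 control libraries). Each comparison has a table of its own that was normalized separately, and no common scale was made for levels of different tables. Whether each library came from an animal of its own is not in the labels, and a p-value here measures only the spread among libraries, which may be technical.

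Normalized counts summed to between 27814940 and 40970391 per library. Tcf21 lay between 7507 and 8081 in uninjured controls and between 1244 and 1718 after deletion. In the infused loss table it lay between 1510 and 2814 in controls and at 258 and 185 after deletion, and in the gain table between 5145 and 6235 in controls and at 14820 and 13502 with the transgene. All 10 fibroblast markers looked for were listed in every table. All 8 mural and all 8 endothelial markers were listed in every table too. Of the 8 neuronal markers Snap25, Th and Dbh were in no table. For uninjured loss 5 of the 8 were listed, for infused loss 4 and for gain 3.

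All members lie on the plus strand of chromosome 18 (GRCm38, GENCODE vM21), with the alpha genes between 36930184 and 37187661, the beta genes between 37264938 and 37524479 and the gamma genes between 37661793 and 37841873. The tables list 49 members for uninjured loss, 50 for infused loss and 49 for gain, and 49 were in all 3. Pcdha12 was listed for infused loss only, and Pcdha1, Pcdha2, Pcdha3, Pcdha6, Pcdha7, Pcdha11, Pcdhac1 and Pcdhb1 were listed in none. The filter of a table mean of at least 10 normalized counts left 47 members tested for uninjured loss, 48 for infused loss and 48 for gain, and all 21 beta and 22 gamma genes passed it in each table.

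Shared exons bear on how well reads can be told apart within a cluster. In the annotation a median of 44.7% of a gamma gene's exon bases was shared with another member, against 53.4% for alpha genes and 0 for beta genes. Of all 31-base words in a member's transcripts, the median share found in no other gene was 53.8% for gamma genes, 36.5% for alpha genes and 88.2% for beta genes. Pcdhgb8 (ENSMUSG00000103081.2, chromosome 18, 37761801 to 37841870), which the annotation calls a polymorphic pseudogene, had 47.7% such words. Values of single alpha and gamma genes are therefore uncertain as far as the authors' counting divided reads from the shared exons among them.

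The fibroblasts expressed mainly the gamma cluster. Compared per kilobase of the longest transcript, the median control level was 113 normalized counts per kb for gamma genes, 44.1 for beta genes and 2.85 for alpha genes in uninjured hearts. It was 122, 28.6 and 3.81 in the infused loss controls and 185, 59.7 and 6.16 in the gain controls, so the clusters stood in the same order in all 3 tables. The 50 genes together took between 762 and 1005 normalized counts per 1000000 in a library.

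Pcdhgc3, a C-type gamma gene and the most abundant member in all 3 tables, stood at 2978 ± 97.2 normalized counts per kb in uninjured controls, 1980 ± 142 in infused loss controls and 3013 ± 197 in gain controls (SD, n = 3 each). Its control range did not overlap that of the next gene in any table. It held between 38.5% and 52.2% of the gamma total in every library. Pcdhgb6, Pcdhgb2 and Pcdhga5 followed in uninjured controls, with ranges that overlapped from each to the next. In infused loss controls the order was Pcdhgc5, Pcdhgb6 and Pcdhga5 and in gain controls Pcdhgb6, Pcdhgc5 and Pcdhga5, again with overlap from each to the next. Pcdhgb8 was 41st of 48 ranked members in uninjured controls at 12.9 ± 3.79 normalized counts per kb, 41st of 49 in infused loss controls and 43rd of 48 in gain controls.

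**Figure D1:**
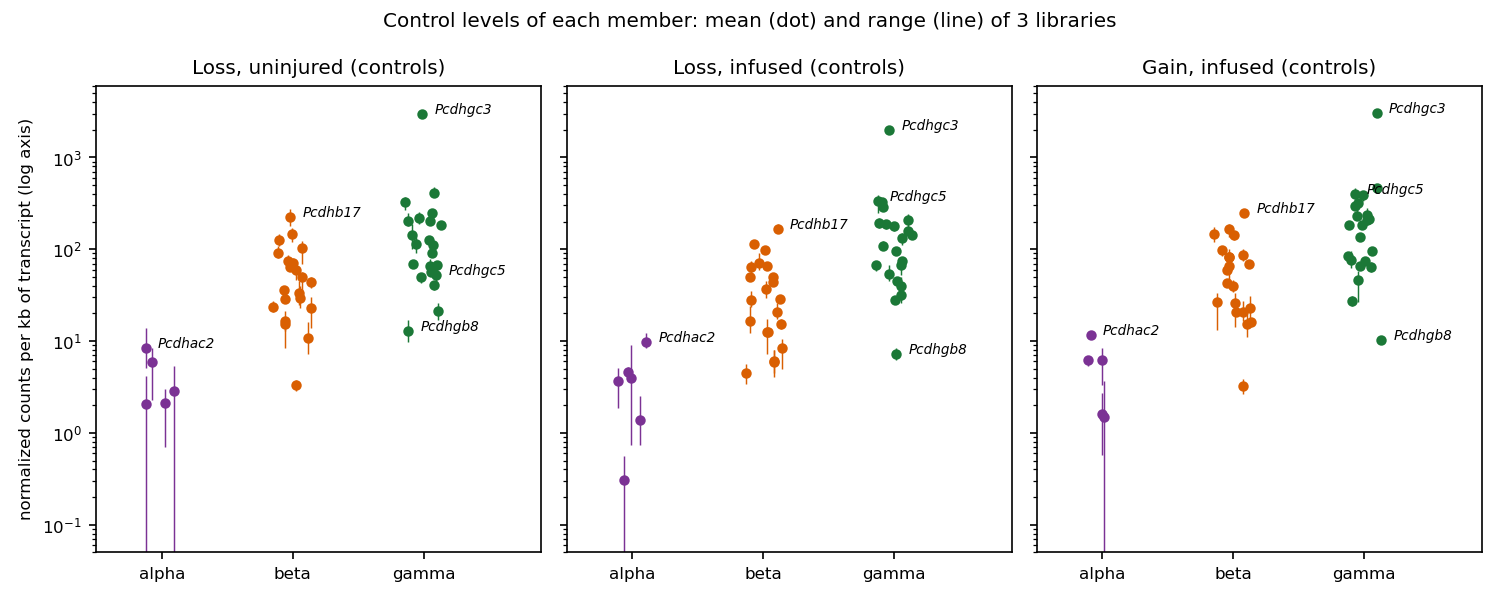
Control level of each member in normalized counts per kb of its longest transcript (log axis), by cluster, in the 3 tables; dots are means and lines the range of 3 control libraries, and a line that runs off the bottom reaches 0. Pcdha10 is left out because its symbol was not matched to a transcript. Pcdhgc3 lies far above the other genes in each table. The alpha genes have the lowest median of the 3 clusters, although Pcdhb13 lies below Pcdhac2 in each table.

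Pcdhgb8 was the member most changed after loss of TCF21, and it was so in hearts with and without infusion. In uninjured hearts it measured 45.2, 54.7 and 79.2 normalized counts in the 3 controls and 706, 945 and 665 in the 3 deleted libraries. The lowest deleted library was above the highest control, and the means were 59.7 ± 17.5 and 772 ± 151 (SD, n = 3 each), a 12.9-fold difference. On the log2(value + 1) scale, which is used for all log2 differences below, the difference was 3.69. The added 1 makes differences of low genes smaller, but a library at 0 can make them larger than the ratio of means. Pcdha8 in uninjured loss, for example, was 1.27-fold lower in means and at -1.45 on the log2 scale.

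In infused hearts Pcdhgb8 measured 39.0, 28.8 and 32.8 in the controls against 542 and 680 after deletion. The groups were again apart, with means of 33.5 ± 5.16 (SD, n = 3) and 611 ± 97.4 (SD, n = 2), an 18.2-fold difference or 4.15 on the log2 scale. Its share of the gamma total lay between 0.173% and 0.286% in uninjured controls and between 2.25% and 3.04% after deletion. The corresponding shares in infused hearts were 0.122% to 0.172% and 2.61% to 2.99%. The genes beside it in the cluster stood near their controls: Pcdhga11 differed by -0.09 in uninjured and 0.05 in infused hearts, and Pcdhga12 by -0.25 and 0.08, with overlapping groups in each case.

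Pcdhgb5, a gamma B gene nearer the middle of the cluster, was the other gamma gene whose level was higher in every deleted library of both experiments. It measured 416, 391 and 455 in uninjured controls and 992, 1168 and 1279 after deletion, 2.73-fold apart in means. In infused hearts the controls gave 340, 272 and 344 and the deleted libraries 605 and 601, 1.89-fold apart. The groups did not overlap in either experiment, and the log2 differences were 1.44 and 0.93.

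Pcdhga3, a gamma A gene near the start of the cluster, was lower after loss. It measured 890, 1193 and 991 in uninjured controls and 448, 384 and 273 after deletion, 2.78-fold lower in means. In infused hearts the values were 913, 805 and 1024 in controls and 599 and 614 after deletion, 1.51-fold lower. Its neighbour Pcdhgb1 was lower in all deleted libraries as well, at 1170, 850 and 857 against 677, 585 and 652 in uninjured hearts and 953, 945 and 792 against 689 and 593 in infused hearts. These groups were all apart, and the log2 differences of Pcdhgb1 were -0.57 and -0.48.

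Pcdhga1, the first gene of the cluster, measured 170, 212 and 190 in uninjured controls and 354, 435 and 339 after deletion, with groups apart. In infused hearts its controls at 130, 151 and 168 overlapped the deleted libraries at 257 and 117. Pcdhga2, the gene between Pcdhga1 and Pcdhga3, measured 245, 354 and 343 in infused controls and 156 and 141 after deletion, whereas its groups overlapped in uninjured hearts with a log2 difference of -0.18. The log2 differences of the 12 gamma A genes ran from -1.49 to 0.97 in uninjured and from -1.06 to 0.22 in infused hearts, on both sides of 0.

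**Figure D2:**
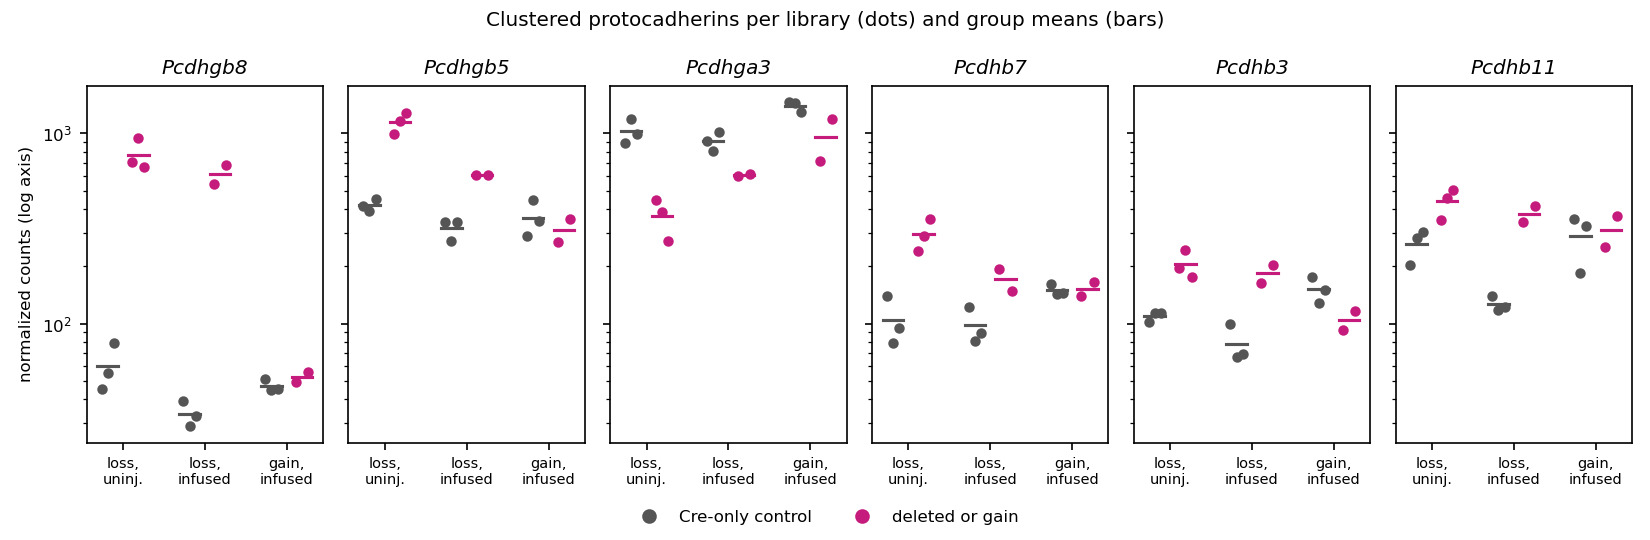
Normalized counts (log axis) of 6 members in every library; grey dots are Cre-only controls, magenta dots deleted or gain libraries, and bars group means. In both loss tables all deleted libraries are above the controls for Pcdhgb8, Pcdhgb5, Pcdhb7, Pcdhb3 and Pcdhb11 and below them for Pcdhga3, and for Pcdhgb8 the gain libraries overlap their controls.

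In the beta cluster 4 genes were higher in every deleted library than in every control of both experiments. Of the 14130 genes tested in both, 697 (4.93%) were, and groups were apart in either direction for 27.7% of genes in uninjured and 35.0% in infused hearts. Pcdhb7 measured 139, 79.4 and 94.6 in uninjured controls and 240, 289 and 355 after deletion, a log2 difference of 1.51. In infused hearts it measured 122, 81.4 and 89.6 against 193 and 148, a difference of 0.81. Pcdhb11 measured 204, 283 and 303 against 352, 458 and 506 in uninjured hearts and 139, 118 and 122 against 342 and 413 in infused hearts. For Pcdhb11 the larger difference was in infused hearts, at 1.57 against 0.74.

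Pcdhb3 measured 102, 114 and 113 in uninjured controls and 196, 243 and 176 after deletion, and 99.1, 66.5 and 69.4 against 164 and 204 in infused hearts. Pcdhb6 measured 80.3, 31.1 and 73.7 against 184, 128 and 139 in uninjured hearts. In infused hearts Pcdhb6 measured 30.0, 16.9 and 20.2 against 46.0 and 33.6. All deleted libraries were above all controls for both genes. Pcdhb4, which sits between Pcdhb3 and Pcdhb6 with Pcdhb5, was on the other side, at 139, 132 and 126 against 56.3, 116 and 64.2 in uninjured and 45, 44.6 and 49.1 against 29.8 and 33.6 in infused hearts.

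Pcdhb9 measured 276, 199 and 180 in infused controls and 97.4 and 67.2 after deletion, the lowest log2 difference of the beta cluster there at -1.40. In uninjured hearts its controls at 374, 212 and 355 overlapped the deleted libraries at 224, 220 and 231. Pcdhb2 measured 30.0, 13.9 and 28.0 in infused controls and 53.2 and 53.3 after deletion, and its groups overlapped in uninjured hearts. The 3 beta genes with the highest mean normalized count in the uninjured table, Pcdhb17, Pcdhb16 and Pcdhb14, had overlapping groups in uninjured hearts with log2 differences of -0.18, 0.17 and -0.22, and were lower in both deleted libraries in infused hearts at -0.34, -0.58 and -0.60.

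Between them the 2 loss experiments share no library. Of the 47 members tested in both, 6 had all deleted libraries above all controls in both (Pcdhb3, Pcdhb6, Pcdhb7, Pcdhb11, Pcdhgb5 and Pcdhgb8), 3 had them below in both (Pcdhb4, Pcdhga3 and Pcdhgb1) and 0 had opposite sides. That is 19.1% of these members, against 9.59% of the 14130 genes tested in both, and nothing is read from this difference because the family was chosen on these comparisons. Across members the log2 differences of the 2 experiments had a Pearson's r of 0.63 and a Spearman's rho of 0.45 (n = 47 genes), and without Pcdhgb8 0.41 and 0.41 (n = 46). Over all 14130 genes r was 0.39 and rho 0.27. The direction was the same in both experiments for 28 of the 47 members (59.6%), near the 60.7% of all 14130 genes. These correlations run across genes of the same libraries, which are not independent replicates.

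**Figure D3:**
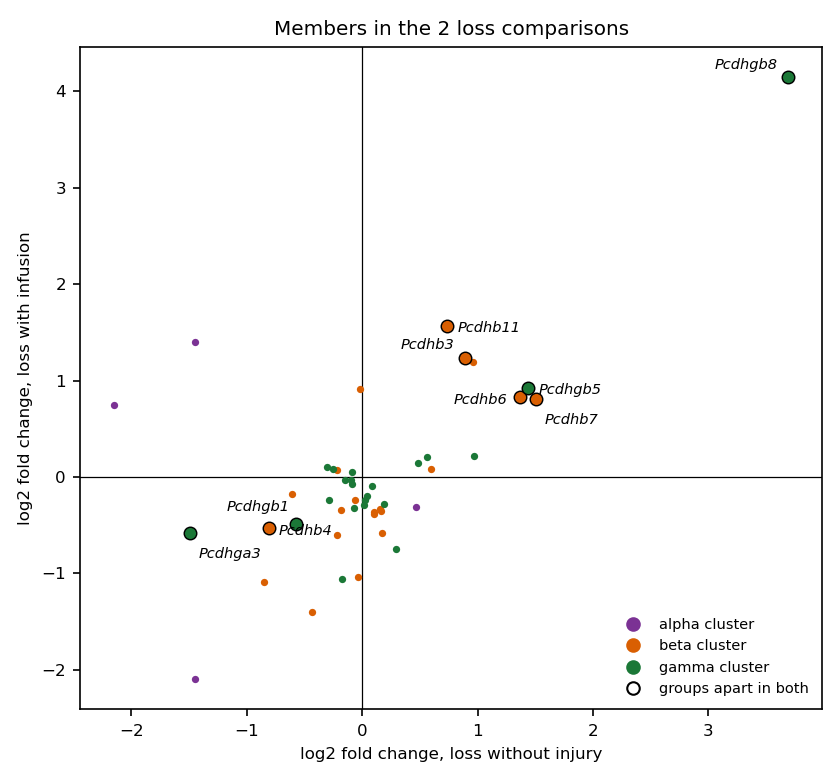
Log2 fold change (deleted minus control) of each of the 47 members in hearts without injury (x axis) and with infusion (y axis), coloured by cluster; ringed points have groups apart on the same side in both. Pcdhgb8 lies alone at the upper right, at 3.69 and 4.15.

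The alpha genes were at the edge of detection. Pcdhac2, the C-type gene of the cluster, was the most abundant per kilobase of those with a matched length in every table. It measured 38.0, 81.6 and 29.8 in uninjured controls and 81.8, 74.0 and 40.8 after deletion. In infused loss it measured 52.1, 71.4 and 49.1 against 57.8 and 35.9, with overlapping groups in both experiments. Pcdha10 measured 13.9, 25.7 and 28.7 in uninjured controls and was listed at 0 in 1 deleted library and at 10.2 and 11.1 in the others. Of the 6 alpha genes listed, 3 were at 0 in each deleted uninjured library and at most 1 in each control. More genes of any kind were at 0 after deletion: of 18634 genes listed, 17612 to 18049 were above 0 in deleted libraries and 18333 to 18366 in controls. The alpha total overlapped, at 89.9 to 197 in controls and 76 to 139.8 after deletion.

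Pcdha8 measured 12.1, 45.1 and 37.6 in uninjured controls and 19.2, 55.6 and 0 after deletion, and Pcdha4, Pcdha5 and Pcdha9 were likewise listed at 0 in some libraries of that table. The alpha median in uninjured hearts, over only 4 genes tested, was -1.45 and ran from -2.24 to -0.55 when 1 library was left out. Across all alternatives, which also varied the filter, it ran from -2.24 to 0.46, so its direction was not kept. Pcdhac2 by itself was at 0.46. In infused loss the alpha median, over 5 genes tested, was -0.31 and ran from -0.65 to 0.04 when 1 library was left out.

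Of the gamma C-type genes Pcdhgc3 differed least after loss. It measured 13440, 14133 and 14299 in uninjured controls and 13589, 15477 and 15463 after deletion. In infused hearts it measured 9676, 9654 and 8516 against 8082 and 9369. The groups overlapped in both experiments and the log2 differences were 0.09 and -0.09.

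Pcdhgc4 differed by -0.29 in uninjured hearts, where groups overlapped, and by -0.24 in infused hearts, where controls at 142, 149 and 130 were above 114 and 124. Pcdhgc5 measured 241, 405 and 265 in uninjured controls and 382, 447 and 417 after deletion, which overlap, with a log2 difference of 0.49. In the infused loss table it measured 1444, 2171 and 2263 against 1908 and 2361, which overlap too, with a difference of 0.14.

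Pcdhgc5 was also the only one of 49 members whose control mean was over 4-fold higher in both infused tables than in the uninjured table, at 6.45-fold and 7.65-fold. For the other members these ratios lay between 0.25 and 2.24 and between 0.57 and 2.96. Its share of the gamma total was 0.924% to 1.44% in uninjured controls, 6.38% to 10.2% in infused loss controls and 6.21% to 8.00% in gain controls. The tables were normalized separately and differ in experiment as well as in infusion, and in the gain table in Cre line, so these cannot be told apart.

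As a description of the loss tables, 5 of 47 members lay past a limma adjusted p of 0.05 (Benjamini-Hochberg over all genes) in uninjured loss, where 3.58% of all genes did. Pcdhgb8, Pcdhgb5, Pcdhb7 and Pcdhga1 were higher and Pcdhga3 lower, beside 1.63% and 1.96% of all genes. In infused loss Pcdhgb8 and Pcdhb11 lay past it, both higher, of 48 members, where 0.912% of all genes did, 0.324% higher and 0.588% lower. Groups did not overlap for 9 members higher and 5 lower in uninjured loss, where 27.7% of all genes had groups apart (14.1% higher and 13.6% lower), and for 8 higher and 17 lower in infused loss, where 35.0% did (17.3% and 17.7%). The choice of the family rests on these comparisons, which fixed that Pcdhgb8 would be among the genes counted, and nothing is read from the counts.

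The cluster medians were -0.03 for gamma and 0.10 for beta genes in uninjured loss, beside -0.01 for all genes tested. In infused loss they were -0.08 and -0.33, beside 0.00. Without control 2, control 3 or deleted library 2 of the uninjured hearts neither Pcdhb7 nor Pcdhga1 was counted, and without control 1 Pcdhga1, without control 3 Pcdhga3 and without deleted library 3 Pcdhb7 was not. Pcdhb11 in infused hearts was not counted without control 2 or without either deleted library.

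The difference between the loss effects in infused and uninjured hearts rests on the same libraries and is likewise a description. On the log2 scale, as infused minus uninjured, it was 0.46 for Pcdhgb8, -0.51 for Pcdhgb5, 0.91 for Pcdhga3, 0.83 for Pcdhb11 and -0.70 for Pcdhb7. In limma's interaction contrast 0 of 47 members lay past an adjusted p of 0.05, where 0.149% of all genes did, and 8 had an unadjusted p under 0.05, from which nothing is read.

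With gain of TCF21 in infused hearts several gamma B genes fell, while Pcdhgb8 overlapped its controls. Pcdhgb8 measured 51.2, 44.9 and 45.3 in controls and 49.0 and 55.8 in the gain libraries, which overlap. Its log2 difference was 0.15 with a 95% interval from -0.56 to 0.85 (limma adjusted p = 0.833). Pcdhgb5 measured 290, 446 and 345 against 268 and 357, also overlapping, with a difference of -0.20 (-0.73 to 0.33, limma adjusted p = 0.686).

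Of the 7 gamma B genes 4 fell. Pcdhgb2 measured 1533, 1401 and 1533 in controls and 845 and 973 in the gain libraries, all below the controls. It was 1.64-fold lower in means, and its log2 difference was -0.71 ± 0.11 (SE, limma adjusted p = 0.0165). Pcdhgb7 measured 600, 637 and 673 against 309 and 403, 1.79-fold lower, with a log2 difference of -0.85 ± 0.15 (SE, limma adjusted p = 0.0297).

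Pcdhgb1 measured 992, 1280 and 1021 against 696 and 640, a log2 difference of -0.71 ± 0.14 (SE, limma adjusted p = 0.0401). Pcdhgb6, the most abundant gamma B gene, measured 2147, 2343 and 2105 against 1527 and 1669, a difference of -0.46 ± 0.09 (SE, limma adjusted p = 0.0443). The groups of all 4 genes were apart. Pcdhgb1 was thus below its controls in the gain libraries as well as in the deleted libraries of both loss experiments. Pcdhgb7 was above its controls in every deleted uninjured library, at a log2 difference of 0.56. In infused loss Pcdhgb7 overlapped its controls, at 0.20. Pcdhgb2 and Pcdhgb6 overlapped their controls in both loss experiments.

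These 4 were the only members that passed of 48, against 4.14% of all 15369 genes tested, 1.57% higher and 2.57% lower. Leaving out 1 library changed these calls. Without control 1 or without gain library 1 of this experiment, 0 members passed (13 and 7 had an unadjusted p under 0.05), without control 2 only Pcdhgb2 did and without gain library 2 only Pcdhga3 did. With a variance model without a trend in limma 0 members passed. Across all alternatives the log2 difference of Pcdhgb2 stayed between -0.81 and -0.61, that of Pcdhgb7 between -1.04 and -0.66, that of Pcdhgb1 between -0.77 and -0.59 and that of Pcdhgb6 between -0.52 and -0.40.

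The other gamma genes mostly lay below their controls without passing. Pcdhgc5 measured 2228, 2700 and 2036 in controls and 1068 and 1697 with gain, a log2 difference of -0.78 (-1.26 to -0.30, limma adjusted p = 0.0881). Pcdhgc3 measured 13221, 14084 and 15066 against 11473 and 11562, a difference of -0.29 (-0.51 to -0.08, limma adjusted p = 0.135). Pcdhga3 measured 1460, 1440 and 1290 against 720 and 1188, a difference of -0.59 (-1.06 to -0.12, limma adjusted p = 0.159). The groups were apart for all of these.

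Pcdhga2 measured 394, 443 and 341 against 138 and 369, so that 1 gain library lay far below and the other within the controls. Pcdhgc4 measured 156, 121 and 135 against 123 and 173 and was, with Pcdhgb8, 1 of the 2 gamma genes above 0. All 12 gamma A genes, 6 of 7 gamma B genes and 2 of 3 gamma C genes had a log2 difference below 0, and the gamma median was -0.33, between -0.41 and -0.19 when 1 library was left out. The median of all genes tested was 0.01.

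In the beta cluster 16 of 21 genes were below 0 and 0 passed, with a median of -0.13. Pcdhb20 measured 668, 482 and 608 against 390 and 346, a log2 difference of -0.66 (-1.06 to -0.26, limma adjusted p = 0.0850). Pcdhb17 measured 1161, 1204 and 1126 against 924 and 951, a difference of -0.31 (limma adjusted p = 0.127). Groups were apart for both.

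The beta genes that stood higher in both loss experiments did not move alike with gain. Pcdhb7 measured 161, 143 and 144 against 140 and 164 and Pcdhb11 355, 185 and 327 against 254 and 369, both overlapping. Their log2 differences were 0.03 and 0.14. Pcdhb3 measured 176, 129 and 151 against 92.0 and 117 and Pcdhb6 66.5, 56.8 and 59.4 against 38.0 and 36.5, both apart and lower, at limma adjusted p = 0.272 and 0.247. Among alpha genes, Pcdhac2 measured 68.7, 72.8 and 65.5 against 55.9 and 37.4, and Pcdha4 33.8, 28.9 and 36.3 against 7.99 and 21.0, both apart and lower at limma adjusted p = 0.346 and 0.216.

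Over the family 40 of 48 members had a log2 difference below 0 with gain, where 49.0% of all genes did. In 25 members both gain libraries were below all controls and in 0 above them, where 39.3% of all genes had groups apart in either direction, 19.1% above and 20.1% below. Members share libraries, and alpha and gamma genes share exons, so these counts describe the family and are not independent observations.

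**Figure D4:**
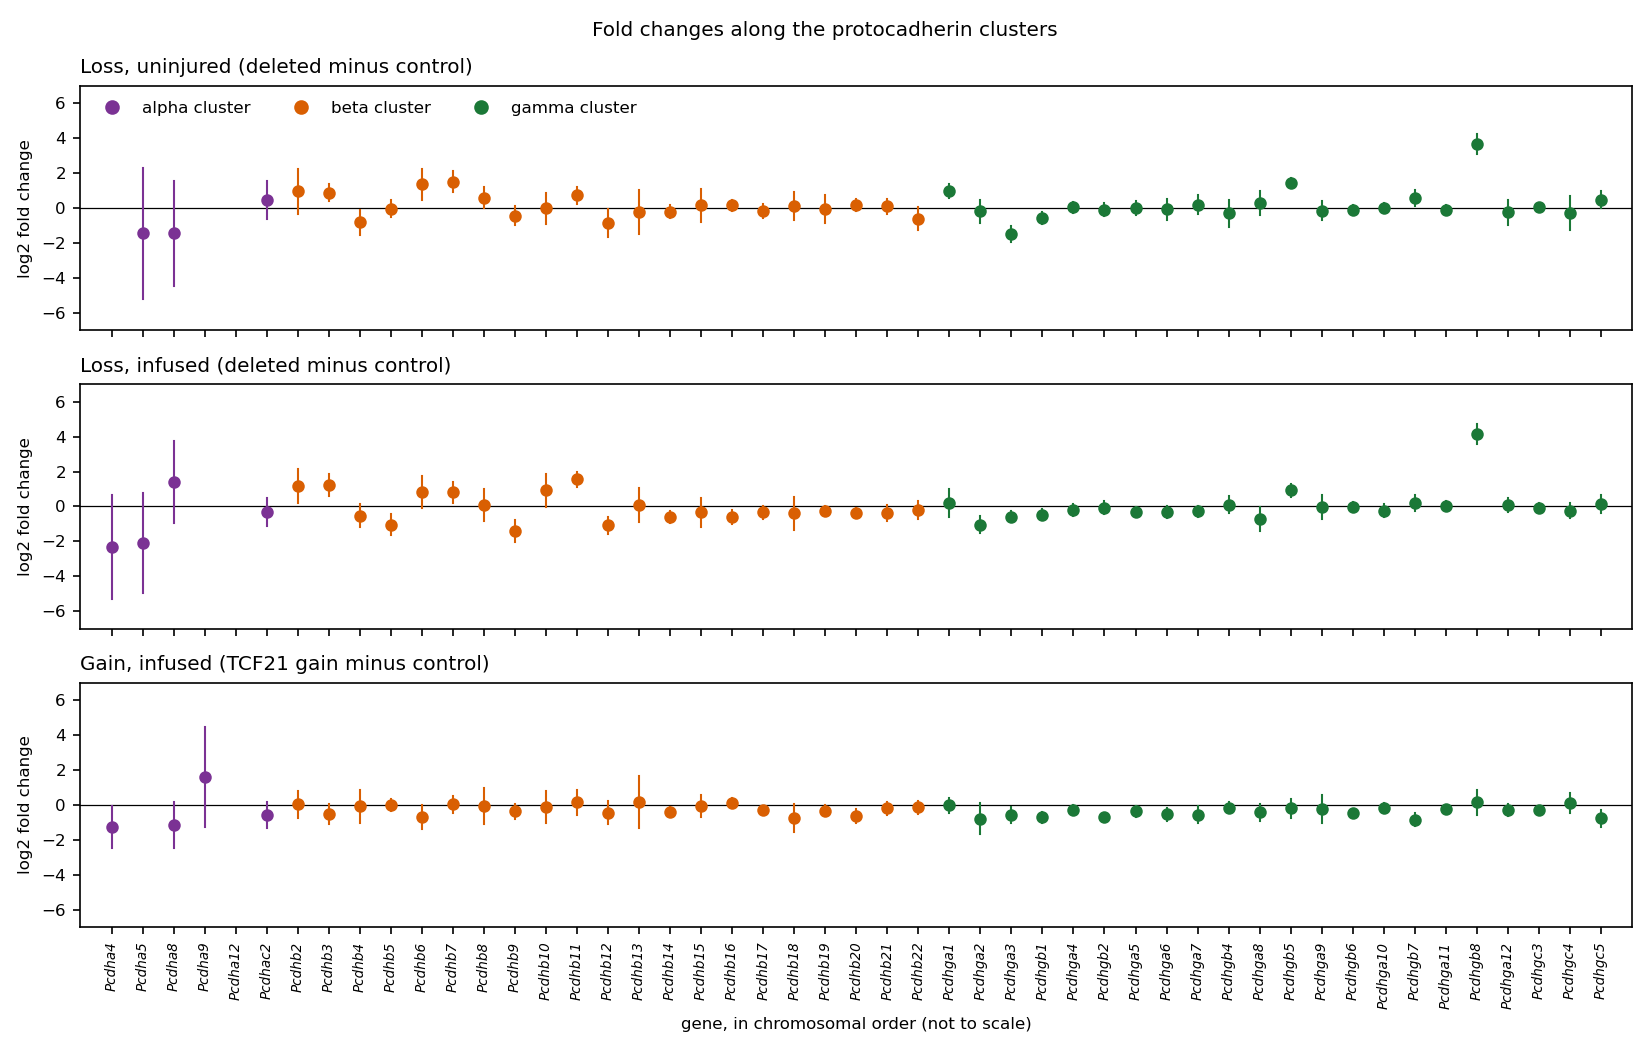
Log2 fold change (points) with its 95% limma interval (lines) of each tested member in chromosomal order, for the 3 comparisons; the genes are evenly spaced and Pcdha10 is left out because its position was not matched. Pcdhgb8 stands at 3.69 and 4.15 in the loss panels and at 0.15 in the gain panel, where most gamma genes lie a little below 0.

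Sums over a cluster are led by its abundant genes. The gamma total was 31068 to 33741 in gain controls and 23424 and 26098 in the gain libraries, and the beta total 6548 to 6906 against 5463 and 5833, both apart. In uninjured loss the gamma total overlapped, at 26118 to 28007 in controls and 26322 to 31140 after deletion, as did the beta total at 5528 to 6078 and 5575 to 6592. In infused loss the gamma total overlapped at 22093 to 23539 against 20802 and 22741, and the beta total was lower after deletion at 3615 and 3727 against 4074 to 4508.

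**Figure D5:**
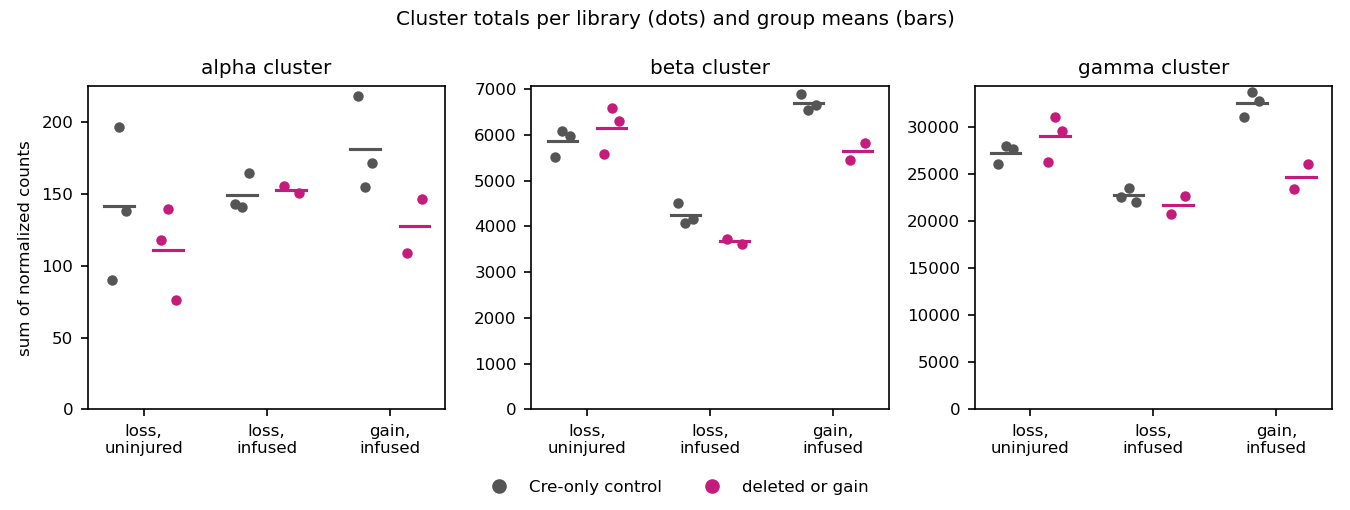
Sum of normalized counts over the alpha, beta and gamma genes in every library (dots) with group means (bars). The gamma and beta totals of the gain libraries lie below all 3 gain controls, while the gamma totals of both loss experiments overlap their controls.

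Markers of cell types moved in the same libraries. In the gain table the summed level of 10 fibroblast markers was 4495700 to 4769350 in controls and 3192610 and 3458030 with gain. Of these 10 markers 0 passed lower, and 1, Tcf21 itself, passed higher. The summed level of 8 endothelial markers was 7951 to 11020 against 5170 and 6395, that of the 3 neuronal markers listed 393 to 487 against 614 and 687, and that of 8 cardiomyocyte markers 742 to 793 against 922 and 978, with 1 passing higher. In uninjured loss the 8 mural cell markers summed to 14821 to 16730 in controls and 9506 to 10889 after deletion, with 4 of 8 passing lower. The 8 endothelial markers summed to 15499 to 15687 against 11991 to 13643 there, and the 8 myeloid markers to 721 to 774 against 867 to 1231. The 5 neuronal markers listed for uninjured loss summed to 602 to 739 against 90.1 to 413, and the 5 Schwann and glial markers listed to 2657 to 3807 against 2301 to 2585.

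In infused loss the 4 neuronal markers listed summed to 347 to 474 in controls and 544 and 548 after deletion, and the 5 Schwann and glial markers listed to 1025 to 1481 against 577 and 597. The 8 endothelial markers summed there to 3663 to 6646 against 2743 and 3154, and the 5 erythroid markers listed to 19.3 to 44.9 against 151 and 460, with 1 passing higher. The part of these shifts in the levels of the protocadherins was not tested. In sorted bulk RNA fewer cells of a type and less RNA per cell cannot be told apart.

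A list of 26 genes for chromatin and DNA methylation factors, chosen as possible regulators of the clusters, was read beside the members. Of these genes for CTCF, cohesin and its loaders, silencing factors and DNA methylation enzymes, 0 passed with limma in either loss comparison, where 3.58% and 0.912% of all genes did, with medians of -0.23 and -0.11. Ctcf, whose protein anchors promoter and enhancer loops at the clusters, measured 2260, 2313 and 2290 in uninjured controls and 1979, 1680 and 1523 after deletion, all lower, at a log2 difference of -0.41. In infused loss Ctcf overlapped its controls at 1386, 1436 and 1326 against 1318 and 1387. The log2 differences of Rad21, a cohesin subunit, were 0.25 and 0.28 in uninjured and infused loss, and those of Wapl, which releases cohesin, -0.20 and -0.35. Those of Smc3, another cohesin subunit, were -0.45 and -0.09. Rad21 was among the 4 of 26 above 0 in uninjured loss and the 7 of 26 in infused loss. Over all genes tested, 7535 of 15544 and 7402 of 14799 were above 0.

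Smchd1, a silencing factor that acts on these clusters, measured 1589, 1554 and 1814 against 1630, 1185 and 1170 in uninjured hearts and 1313, 1599 and 1415 against 932 and 1246 in infused hearts, overlapping in the first and lower in the second. With gain 1 of 26 passed, where 4.14% of all genes did. This gene, the maintenance DNA methyltransferase Dnmt1, measured 1529, 1485 and 1374 in controls and 2066 and 2262 with gain (log2 difference 0.57 ± 0.10 SE, limma adjusted p = 0.0242). In that comparison 20 of the 26 had a log2 difference above 0, at a median of 0.09, beside 7841 of all 15369 genes tested. Of the protein partners and effectors, which include kinases, the WAVE complex and the gamma-secretase subunits, 0 of 26, 0 of 25 and 0 of 26 passed in uninjured loss, infused loss and gain.

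Among protocadherins outside the clusters, Pcdh1 stood higher after loss. Pcdh1, a non-clustered protocadherin within 1 Mb of the clusters, measured 166, 208 and 198 in uninjured controls and 370, 520 and 554 after deletion, 2.52-fold higher in means. In infused hearts it measured 139, 89.2 and 113 against 300 and 294, 2.60-fold higher, and with gain 58.2, 49.1 and 53.8 against 75.9 and 93.7. All these groups were apart, and Pcdh1 passed the threshold in uninjured loss only.

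Pcdh12, an endothelial protocadherin in the same region, rose with gain, from 119, 102 and 65.5 to 269 and 314 (log2 difference 1.64 ± 0.29 SE, limma adjusted p = 0.0278). Fat4, a giant cadherin, fell with gain from 952, 1113 and 854 to 371 and 479 (log2 difference -1.20 ± 0.16 SE, limma adjusted p = 0.0139). In all, 1 of 14 non-clustered protocadherins and giant cadherins tested passed in uninjured loss, 0 of 13 in infused loss and 2 of 13 with gain. Of the classical cadherins and catenins 0 of 10, 1 of 11 (Cdh19, lower) and 1 of 12 (Jup, higher) passed. The shares of all genes that passed were 3.58% in uninjured loss, 0.912% in infused loss and 4.14% with gain. Whether the counts of these short lists differ from those shares was not tested.

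Among the listed genes beside the clusters, 16 of 24 tested had a log2 difference above 0 in uninjured loss (median 0.18), 12 of 23 in infused loss (0.01) and 12 of 24 with gain (0.02). Over all genes tested, 7535 of 15544, 7402 of 14799 and 7841 of 15369 were above 0. Taf7, between the beta and gamma clusters, and Diaph1, after the gamma cluster, passed in none of the 3 comparisons, with overlapping groups in each. Leaving the members out, 4 of 36 genes tested within 1 Mb of the clusters passed in uninjured loss, all higher (Cystm1, Ndfip1, Pcdh1 and Sra1), which is 11.1%, beside 4.48% of all 335 genes tested on chromosome 18, these included. Groups were apart for 13 of the 36 higher and 3 lower, at a median of 0.17, and for 58 higher and 52 lower on the chromosome, at -0.04. They were apart for 14.1% of all genes tested higher and 13.6% lower. In infused loss 0 of 32 passed, beside 1.55% of 323. With gain 3 of 33 passed, which is 9.09%, beside 3.27% of 336: Arap3 and Pcdh12 rose and Hbegf fell. Over all genes tested, 3.58% passed in uninjured loss, 0.912% in infused loss and 4.14% with gain.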

How the data were processed

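RNA of 16 libraries of sorted cardiac fibroblasts was prepared with a micro-scale kit and a low-input SMART-seq protocol, per the labels' protocols. The submitters' processing notes name kallisto, DESeq2 and GRCm38; tool versions and gene models were not given in the sources used here. Per their names and values, the 3 deposited tables hold a signal of normalized, estimated counts that the authors scaled table by table, so no count model was fitted. The test was limma 3.58.1 (R 4.3.3) on log2(value + 1) for genes with a table mean of at least 10, two-sided with a variance trend, Benjamini-Hochberg adjustment over all genes and a threshold of 0.05. Each fit held the groups of 1 comparison, and the interaction the 4 loss groups. The procedure was tested on simulated data. Folds "in means" are ratios of group means.

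The members and lists were chosen with earlier results of these data known. Named are Pcdhgb8, the C-type genes, members past the threshold, and in each comparison and cluster up to 3 with the largest change and up to 3 with the highest mean; of the other lists, genes past the threshold and a fixed few. Other members and genes named were chosen after their values were seen. Positions and shared words came from GENCODE vM21. Alternatives varied the pseudocount, filter, scaling, variance model, library weights and replicate block and left out each library.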

Additional observations from a re-analysis of the deposited data

How the results depend on the processing

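Pseudocount, filter and rescaling kept every count of passing genes and members within 1.5 times. Without a variance trend 94, 72 and 25 genes passed in uninjured loss, infused loss and gain, with 2 members in uninjured loss and 0 in gain. Library weights gave 949, 308 and 1013, 39 for the interaction, and 7 members in infused loss. Same-numbered libraries did not deviate together in all pairs (r of 0.0254, -0.0538 and -0.0417 in uninjured loss, 0.176 and -0.0425 in infused loss, 0.0953 and 0.0622 in gain). The numbers were not taken to pair them. Where a group had 2 libraries their deviations mirror each other, so these values cannot settle whether libraries were paired there. With the replicate block 227, 1462 and 1842 genes passed, 79 for the interaction, and 3, 9 and 8 members. Leaving out 1 library gave 88 to 891 genes and 2 to 7 members in uninjured loss, 32 to 175 and 1 to 3 in infused loss, 124 to 821 and 0 to 5 in gain, and 12 to 57 genes and 0 members in every fit for the interaction. The cause of these shifts was not tested. No named member changed direction past the threshold. Normalized values hide each library's read depth, and 2 or 3 libraries a group limit the precision.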
